A study of Mus musculus with 9 samples.

Results

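The comparison set 3 arrays of left ventricle labelled Lrat-/- against 3 arrays of left ventricle labelled wild type, both from male mice fed a vitamin A sufficient diet. It took in every probe set that could be assigned to 1 named gene, which gave 21895 genes on 6 of the 9 arrays of the series. Of these, 8540 genes were bright, meaning that their mean signal in at least 1 of the 2 groups reached 7.58 on the log2 scale, the 95th percentile of 5222 negative control probe sets. The sufficient diet held 250000 U/kg of added retinol palmitate and was fed for 50 days before the hearts were taken. The third group, 3 arrays labelled Lrat-/- on a vitamin A deficient diet without that supplement, served only to estimate the spread between arrays, and its levels are given beside genes as values. The labels name the genotype without the make-up of the allele, and strain, age and littermate status are likewise not given here. Each array carried RNA of 1 sample, and nothing states that the samples came from separate animals, so p-values measure only the spread between these samples, which may be technical. With 3 arrays in a group the number of arrays limits the precision.

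Lrat encodes lecithin retinol acyltransferase, which moves a fatty acid from phosphatidylcholine to retinol and so makes the retinyl esters in which vitamin A is stored. Retinol that is not stored can be oxidised to retinaldehyde and on to retinoic acid, which binds the RAR and RXR nuclear receptors and changes the transcription of their target genes. The heart takes up retinoids from the blood, and in development retinoic acid made in the epicardium by Aldh1a2 takes part in the growth of the ventricular wall.

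The 6 arrays were alike in scale, with medians over all probe sets of 6.38 to 6.43 (log2). Pearson correlations over genes were 0.991 to 0.995 within groups and covered the same range between groups. Wild-type arrays differed from each other by a root mean square of 0.236 to 0.3, and arrays labelled Lrat-/- by 0.226 to 0.234. The tissue label fitted the cardiomyocyte markers, of which 14 of 14 were bright. Myl3, the ventricular essential myosin light chain, read 13.88, 13.82 and 13.91 in wild type and 13.78, 13.71 and 13.67 on the arrays labelled Lrat-/-.

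Lrat itself went against the label. Its signal was 5.81, 5.78 and 5.73 on the wild-type arrays and 7.29, 7.34 and 7.38 on those labelled Lrat-/-, and it was 6.84, 6.78 and 6.96 on the arrays labelled Lrat-/- of the deficient diet. Every array labelled Lrat-/- thus lay above every wild-type array, by 1.57 ± 0.07 on the log2 scale (SE, n = 3 per group; adjusted p = 1.47e-05, limma). All 6 values of the sufficient diet were under 7.58, so the gene counted as dim. No source used here places its probes against the deletion, so the signal does not settle which transcripts it reflects. Directions below are those of the labels. The 20 measured genes on each side of Lrat in gene order were looked at as well. Of these 40 neighbours 0 passed the threshold, 15 were higher and 25 lower, and their median difference was -0.06 against 0.00 for all genes. The 2 groups did not overlap for 3 neighbours on the higher side and 6 on the lower, against 7.9% of all genes. At an unadjusted p of 0.05 (limma) 2 neighbours passed as higher and 5 as lower, against 6.81% of all genes. Both were thus more frequent here than over all genes, and the cause was not tested. Rbm46, the nearest measured gene on one side, differed by 0.56 ± 0.17 (adjusted p = 0.509, limma), and Sfrp2, a secreted Wnt modulator 7 genes away on the other side, by -0.89 ± 0.21 (adjusted p = 0.334, limma).

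Of the 21895 genes, 29 (0.132%) passed an adjusted p of 0.05 with limma, 8 higher (0.0365%) and 21 lower (0.0959%) on the arrays labelled Lrat-/-. Among the bright genes 19 passed (0.222%), 4 higher (0.0468%) and 15 lower (0.176%). The genes that fell included enzymes of lipid, amino acid and aldehyde metabolism, zinc finger genes and an F-box gene. Those that rose included a Wnt pathway receptor, an inhibitor of protein kinase A and a membrane repair protein. Of the 19 bright genes past the threshold, 9 were bright in both groups, 9 in wild type alone and 1 on the arrays labelled Lrat-/- alone. For the genes bright in 1 group the size of the difference is uncertain, because the other group lies within the range of the negative controls. The count depended on single arrays: omitting wild-type array 1, 2 or 3 left 14, 15 or 98 genes past the threshold, and the count was 11 without array 2 or 3 labelled Lrat-/- and 13 or 14 without one of the deficient diet. With only the 6 arrays of the comparison in the model 7 genes passed, among them Gdpd3, Hal, Lgr6 and Hnmt. The 2 groups did not overlap for any of the 29 genes, as was the case for 7.9% of all genes. At an unadjusted p of 0.05, 1490 genes passed (6.81%), and 52 genes (0.237%) differed by more than 1 log2 unit. Among genes bright in both groups, 59.6% had a difference below 0, with a median of -0.03.

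**Figure D1:**
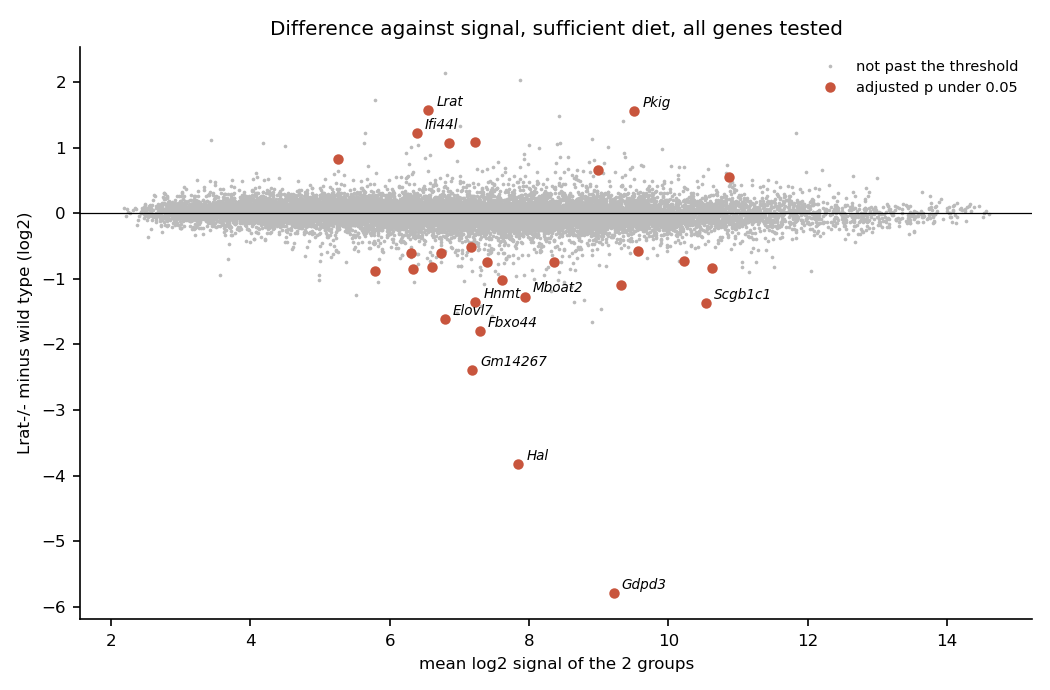
Difference between the arrays labelled Lrat-/- and wild type (log2, vertical axis) against the mean log2 signal of both groups (horizontal axis), 1 point per gene, for 21895 genes. The 29 genes with an adjusted p under 0.05 are filled in colour and those past 1.2 in either direction are named; Gdpd3 at -5.79 and Hal at -3.82 lie far below the rest.

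Among named genes the largest fitted difference was that of Gdpd3. Gdpd3, a glycerophosphodiester phosphodiesterase that acts as a lysophospholipase D and can release lysophosphatidic acid, read 11.9, 12.03 and 12.4 in wild type and 6.27, 6.29 and 6.4 on the arrays labelled Lrat-/-. It was thus among the brighter genes of the wild-type ventricle and at the level of the negative controls on all 3 arrays labelled Lrat-/-, a fall of -5.79 ± 0.15 (adjusted p = 1.84e-07, limma). On the deficient diet it read 5.87, 6.18 and 6.34. Mboat2, which re-acylates lysophospholipids, read 8.6, 8.32 and 8.8 in wild type and 7.21, 7.35 and 7.34 on the arrays labelled Lrat-/-, without overlap (-1.27 ± 0.12, adjusted p = 0.00412, limma). Of 24 measured genes of glycerophospholipid phosphodiesterases and remodelling 5 were higher and 19 lower, and the median of the list was -0.04. This list and that of fatty acid elongation and desaturation were drawn up with earlier results known, so their counts are no independent evidence. Gdpd3 and Mboat2 passed the threshold as lower and 0 genes as higher, where 0.0959% of all genes passed as lower. Agpat1, which acylates lysophosphatidic acid to phosphatidic acid, lay the other way at 0.48 ± 0.09 and missed the threshold (adjusted p = 0.139, limma). Of 18 genes of fatty acid elongation and desaturation 5 were higher and 13 lower. Past the threshold was 1 of them, the very long chain elongase Elovl7, which was lower. It read 7.58, 7.94 and 7.27 in wild type and 5.88, 5.93 and 6.14 on the arrays labelled Lrat-/-, so that wild type straddled the negative control limit and the other group lay well below it (-1.61 ± 0.17, adjusted p = 0.00702, limma). Without array 2 of the group labelled Lrat-/- Elovl7 missed the threshold (adjusted p = 0.0613), while Gdpd3 and Mboat2 kept their calls whichever of the 9 arrays was omitted. These are whole ventricles, in which fewer cells of a type and less RNA per cell cannot be told apart.

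The list of histidine, histamine and tyrosine breakdown held 10 genes with a difference below 0 and 8 above it. Of these 18 measured genes 3 passed the threshold as lower and 0 as higher, where 0.0959% of all genes passed as lower. The list was drawn up with these results known, so its count is no independent evidence, and of 21 genes of branched-chain and serine-glycine metabolism 0 passed (median -0.07). Hal, histidine ammonia-lyase, takes the first step of histidine breakdown. It read 9.77, 10.13 and 9.36 in wild type and 5.91, 6.09 and 5.8 on the arrays labelled Lrat-/-. Every wild-type array was bright and every array labelled Lrat-/- was dim (-3.82 ± 0.17, adjusted p = 1.47e-05, limma). Hnmt, which inactivates histamine by methylation, read 7.84, 7.79 and 8.07 in wild type and 6.58, 6.57 and 6.51 on the arrays labelled Lrat-/- (-1.35 ± 0.13, adjusted p = 0.00412, limma). Fah, fumarylacetoacetate hydrolase, the last enzyme of tyrosine breakdown, was bright in both groups. Its values were 9.99, 9.98 and 9.63 in wild type and 8.96, 8.84 and 8.51 on the arrays labelled Lrat-/-, a fall without overlap (-1.10 ± 0.15, adjusted p = 0.0398, limma). Hal and Hnmt passed without each of the 9 arrays, while Fah passed only without wild-type array 3 (adjusted p = 0.0152) and reached 0.164 otherwise. The median of the 18 genes was -0.02, so the list as a whole lay at the median of all genes. Pcbd1, which recycles the cofactor of phenylalanine hydroxylase, differed by -0.75 ± 0.12 and missed the threshold (adjusted p = 0.0657, limma).

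Enzymes of aldehyde and propionate metabolism followed with smaller falls. Glo1, glyoxalase 1, which detoxifies methylglyoxal, read 11.08, 10.99 and 11.06 in wild type and 10.43, 10.03 and 10.18 on the arrays labelled Lrat-/-. The wild-type values lay within a narrow band above all 3 others (-0.83 ± 0.11, adjusted p = 0.0268, limma). Hagh, which acts next in the same pathway, was higher instead, at 9.6, 9.6 and 9.75 in wild type against 10, 9.9 and 10.03, and missed the threshold (0.33 ± 0.07, adjusted p = 0.247, limma). Among 29 genes of the glyoxalase, glutathione and antioxidant list, Glo1 alone passed and the median was -0.08. Over all genes 0.0959% passed as lower, and this list too was drawn up with earlier results known. Mmut, methylmalonyl-CoA mutase of propionate breakdown, read 9.81, 9.83 and 9.91 in wild type and 9.23, 9.37 and 9.2 on the arrays labelled Lrat-/- (-0.58 ± 0.08, adjusted p = 0.0339, limma). Mmut was bright on all 6 arrays and did not overlap between groups. Glo1 passed only without wild-type array 3 (adjusted p = 0.0344) or array 1 labelled Lrat-/- (adjusted p = 0.0207), and Mmut only without wild-type array 3 (adjusted p = 0.042).

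Among the genes that rose, 3 were bright and functionally named: Lgr6, Pkig and Trim72. Lgr6 is a receptor for R-spondins, which strengthen Wnt signalling. It read 6.72, 6.68 and 6.62 in wild type and 7.73, 7.8 and 7.76 on the arrays labelled Lrat-/-, 2 tight clusters on either side of the negative control limit (1.09 ± 0.06, adjusted p = 0.000127, limma). Pkig encodes the gamma inhibitor of protein kinase A and read 8.48, 8.64 and 9.09 in wild type and 10.41, 10.29 and 10.17 on the arrays labelled Lrat-/-. The gap between the highest wild-type and the lowest other array exceeded the range of either group (1.55 ± 0.14, adjusted p = 0.00398, limma). Trim72, also called MG53, helps to reseal the damaged sarcolemma of muscle cells. It read 8.65, 8.51 and 8.81 in wild type and 9.41, 9.21 and 9.31 on the arrays labelled Lrat-/- (0.65 ± 0.09, adjusted p = 0.0398, limma). Lgr6 and Pkig passed without each of the 9 arrays. With only the 6 arrays of the comparison in the model Lgr6 still passed (adjusted p = 0.00516), while Pkig had an adjusted p of 0.0788. Trim72 passed only without wild-type array 3 (adjusted p = 0.0143). Lgr6 was the only 1 of 23 R-spondin and Wnt genes past the threshold (median 0.03). Pkig was the only 1 of 21 genes of adrenergic signalling and protein kinase A (median 0.05). Trim72 was the only 1 of 19 genes of membrane repair and the dystrophin complex (median -0.07). Over all genes 0.0365% passed as higher, so these counts say little about the other members. The lists were drawn up with earlier results known, so their counts are no independent evidence.

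**Figure D2:**
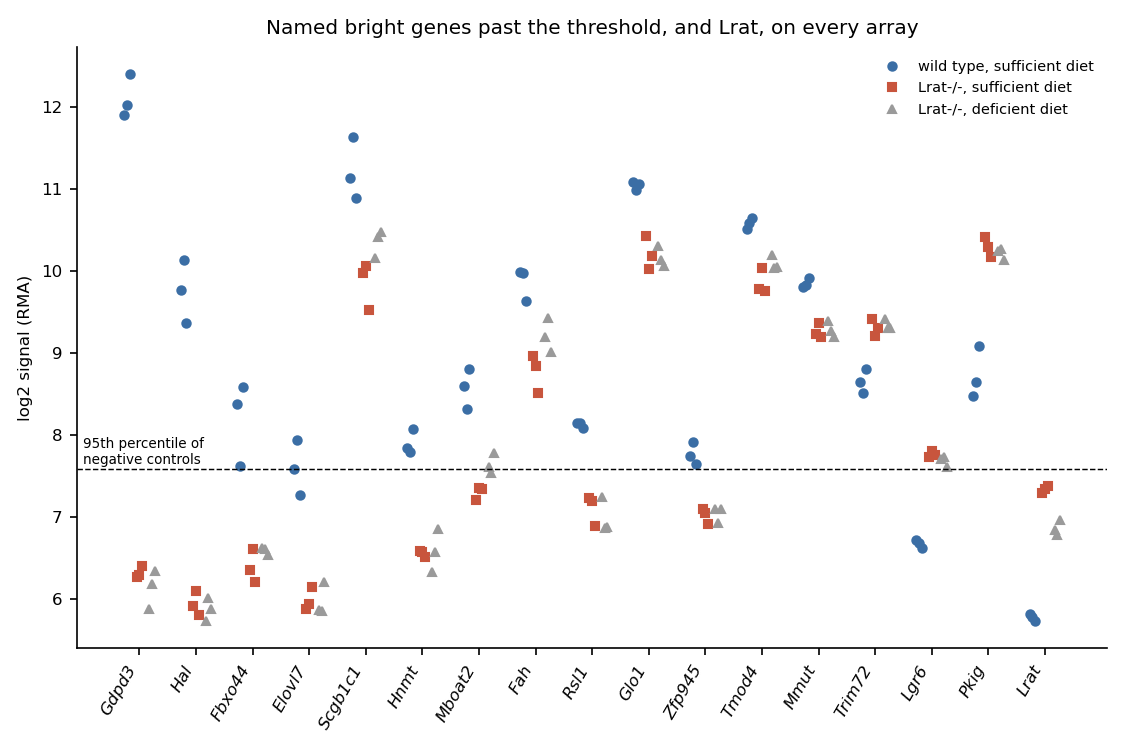
Log2 signal on each array (vertical axis) for functionally named bright genes past the threshold and for Lrat, ordered by difference, with circles for wild type, squares for Lrat-/- on the sufficient diet and triangles for Lrat-/- on the deficient diet. The dashed line marks the negative control limit of 7.58; in every gene shown the circles and squares do not overlap.

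Other bright genes that fell were regulators, a muscle protein and a secretoglobin. Fbxo44, an F-box adaptor of a ubiquitin ligase, read 8.38, 7.62 and 8.58 in wild type and 6.35, 6.61 and 6.21 on the arrays labelled Lrat-/- (-1.80 ± 0.21, adjusted p = 0.0185, limma). Wild-type array 2 was the lowest of its group yet lay above all 3 others. Rsl1, a KRAB zinc finger repressor known in mice for silencing male-biased liver genes, read 8.15, 8.14 and 8.09 in wild type and 7.23, 7.19 and 6.89 on the arrays labelled Lrat-/- (-1.03 ± 0.12, adjusted p = 0.0185, limma). Zfp945, another zinc finger gene, read 7.74, 7.91 and 7.64 against 7.09, 7.05 and 6.91 (-0.75 ± 0.09, adjusted p = 0.0201, limma). Zinc finger genes of this kind have close paralogs, so their signals may be shared between copies. Tmod4, a tropomodulin that caps the pointed ends of actin filaments in striated muscle, read 10.51, 10.59 and 10.65 in wild type and 9.78, 10.04 and 9.75 on the arrays labelled Lrat-/- (-0.72 ± 0.09, adjusted p = 0.0265, limma). Scgb1c1, a secretoglobin, read 11.14, 11.64 and 10.89 against 9.97, 10.06 and 9.52 (-1.37 ± 0.20, adjusted p = 0.0431, limma). None of these 5 genes overlapped between groups. Their calls were less steady. Rsl1 missed the threshold without wild-type array 1 or 2 (adjusted p = 0.0695 and 0.0859) and without array 2 or 3 labelled Lrat-/- (adjusted p = 0.0731 and 0.0753). Fbxo44 passed only without wild-type array 2 or 3 (adjusted p = 0.000493 and 0.0152), and Scgb1c1 only without wild-type array 3 (adjusted p = 0.0152). Zfp945 passed only without wild-type array 3 or array 2 labelled Lrat-/- of the deficient diet, and Tmod4 only without wild-type array 3 or array 2 labelled Lrat-/- of the sufficient diet, with adjusted p of 0.139 and 0.145 at most otherwise.

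**Figure D3:**
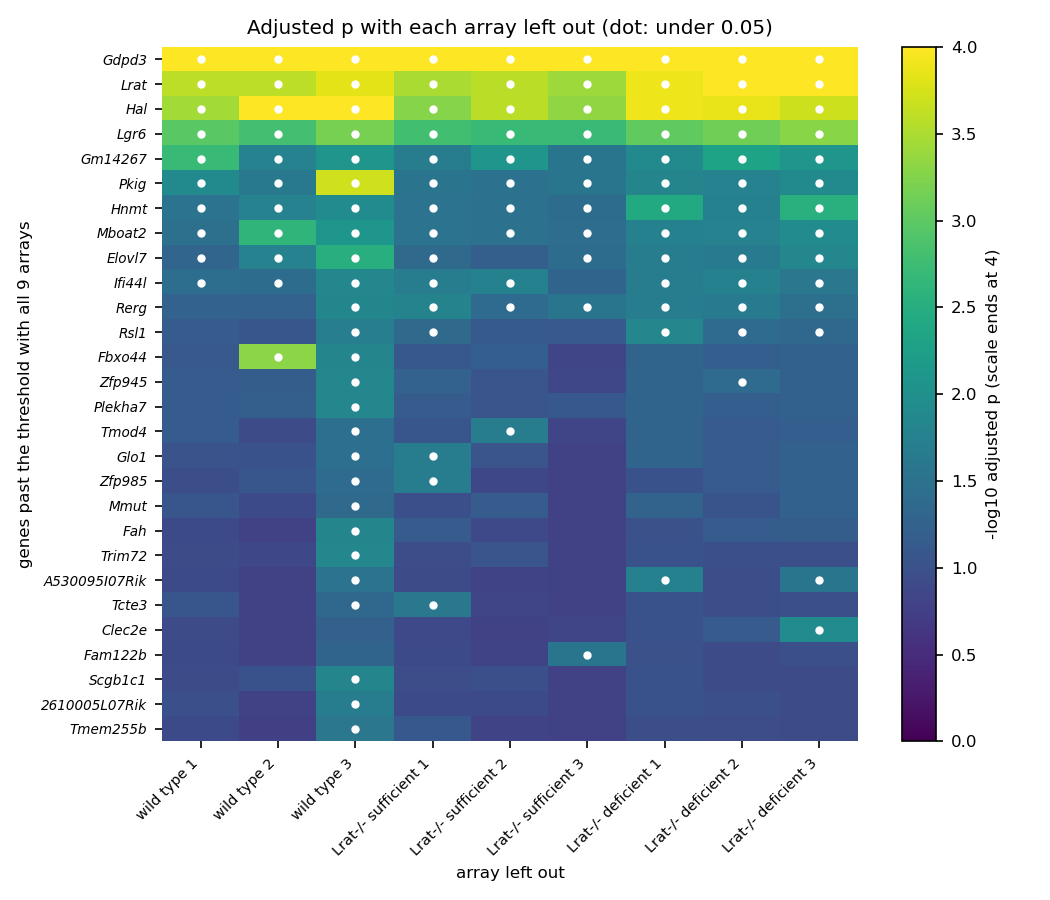
Adjusted p on a -log10 colour scale for genes past the threshold (rows), refitted with each of the 9 arrays left out in turn (columns), with a dot where it is under 0.05. A dot in every column is carried by 8 genes, and the column without wild-type array 3 holds the most dots.

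Besides Lrat, 8 functionally named genes past the threshold were dim in both groups, and their sizes are uncertain. Ifi44l, an interferon-inducible gene, differed by 1.22, Rerg, a Ras-related growth inhibitor, by 1.07 and Clec2e, a C-type lectin-like gene, by 0.83. Lower were Zfp985 (-0.88), the adherens junction gene Plekha7 (-0.84), the dynein light chain gene Tcte3 (-0.61), Fam122b (-0.61) and Tmem255b (-0.51). Each of these calls was lost when at least 1 of the 9 arrays was left out. Ifi44l missed the threshold when array 3 labelled Lrat-/- was omitted (adjusted p = 0.0506) and Rerg when wild-type array 1 or 2 was (adjusted p = 0.0544 and 0.0552). Plekha7 and Tmem255b passed only without wild-type array 3 (adjusted p = 0.0143 and 0.0257), Fam122b only without array 3 labelled Lrat-/- (adjusted p = 0.0281) and Clec2e only without array 3 of the deficient diet (adjusted p = 0.0117). Zfp985 and Tcte3 passed only without wild-type array 3 (adjusted p = 0.0406 and 0.0459) or array 1 labelled Lrat-/- (adjusted p = 0.0207 and 0.0247). A further 3 genes past the threshold were predicted genes or clones, of which Gm14267 (-2.40) also passed without each of the 9 arrays.

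Among bright genes that missed the threshold, the lowest p-values on the higher side belonged to Ndrg4 and Atp5e. Ndrg4, which in zebrafish is needed for growth of the heart muscle, read 8.94, 8.92 and 8.12 in wild type and 10.2, 10.14 and 9.82 on the arrays labelled Lrat-/- (1.40 ± 0.21, adjusted p = 0.0557, limma). Wild-type array 3 stood lower than the other 2, and every array labelled Lrat-/- lay above all of them. Atp5e, the epsilon subunit of ATP synthase, read 12.25, 12.3 and 12.55 in wild type and 12.93 on each array labelled Lrat-/- (0.57 ± 0.09, adjusted p = 0.0565, limma). Asns, asparagine synthetase, differed by 0.62 ± 0.11 (adjusted p = 0.109, limma). On the lower side were Btbd9 at -0.63, Cryzl2 at -0.68, the collectin Colec11 at -0.90, the translation factor Eif3g at -0.42 and Tbc1d4, a regulator of insulin-driven glucose uptake, at -0.60, with adjusted p of 0.0567 to 0.0903. Cnmd, chondromodulin, an inhibitor of vessel growth, read 7.54, 8.46 and 7.21 in wild type and 6.29, 6.08 and 6.25 on the arrays labelled Lrat-/- (-1.53 ± 0.26, adjusted p = 0.0903, limma). Its wild-type array 2 stood well above the other 2, and the groups did not overlap.

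The retinoid lists other than Lrat held no further call. In the list of retinoid uptake, storage and hydrolysis, with 16 genes, Lrat alone passed, and of 17 genes of oxidation and clearance and 13 receptors 0 passed. Their medians were 0.06, -0.09 and 0.00. Over all genes 0.132% passed, so a count of 0 in lists of this size says little. At an unadjusted p of 0.05 (limma) 3 genes of the first list, Lrat included, passed as higher and 1 as lower. In the second list 0 passed as higher and 2 as lower, and 0 receptors passed, against 6.81% of all genes. Rbp7, an endothelial retinol binding protein, read 10.58, 11.21 and 9.64 in wild type and 11.48, 11.1 and 11.06 on the arrays labelled Lrat-/-. The groups overlapped, with wild-type array 3 the lowest of the 6 (0.74 ± 0.32, adjusted p = 0.724, limma). Aldh1a2, which makes retinoic acid, read 8.12, 7.97 and 7.74 in wild type and 7.36, 7.6 and 7.04 on the arrays labelled Lrat-/-, without overlap (-0.61 ± 0.19, adjusted p = 0.529, limma).

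Retinoic acid receptors bind pairs of the hexamer AGGTCA or its variant AGTTCA, and these letters were searched on both strands in RefSeq promoters of assembly GRCm38.p6, each of 300 bases around a gene's start. Of the 29 genes past the threshold 22 had a promoter in that table. AGGTCA occurred in 3 of the 22 (13.6%), Fbxo44, Trim72 and Scgb1c1, against 16.3% of 15833 genes with a promoter. AGTTCA occurred in 2 of the 22 (9.09%), Ifi44l and Rsl1, against 14% of the same genes. The promoters of the 2 bright genes with the largest falls are shown because neither holds either hexamer, and that of Trim72 because it holds AGGTCA at 2 places, marked in capitals. A match here describes letters in a window only. In the order of the lines they lie at chr7:126766164-126766463, chr10:93488518-93488817 and chr7:128004128-128004427, all on the plus strand.
Gdpd3: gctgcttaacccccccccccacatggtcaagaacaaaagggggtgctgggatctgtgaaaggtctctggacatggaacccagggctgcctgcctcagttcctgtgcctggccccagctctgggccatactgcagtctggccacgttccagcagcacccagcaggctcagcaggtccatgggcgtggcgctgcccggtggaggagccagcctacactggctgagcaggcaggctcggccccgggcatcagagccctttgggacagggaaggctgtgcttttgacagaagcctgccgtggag
Hal: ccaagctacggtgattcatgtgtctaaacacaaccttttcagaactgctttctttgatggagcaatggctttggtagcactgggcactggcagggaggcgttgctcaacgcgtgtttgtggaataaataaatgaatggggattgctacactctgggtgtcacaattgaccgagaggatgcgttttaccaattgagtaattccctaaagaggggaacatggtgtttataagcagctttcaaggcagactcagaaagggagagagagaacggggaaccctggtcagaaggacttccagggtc
Trim72: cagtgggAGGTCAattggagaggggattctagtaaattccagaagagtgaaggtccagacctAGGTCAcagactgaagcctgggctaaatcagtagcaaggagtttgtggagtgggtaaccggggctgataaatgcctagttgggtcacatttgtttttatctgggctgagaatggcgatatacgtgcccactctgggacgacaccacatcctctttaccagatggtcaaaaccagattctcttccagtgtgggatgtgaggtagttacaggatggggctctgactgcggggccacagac

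By the chromosomes in the authors' annotation, 5 of the 26 genes past the threshold that have one lay on chromosome 17, among them Glo1, Mmut, Zfp945 and Tcte3. They were 5 of 937 genes there (0.534%, against 0.132% of all genes), all lower, and chromosome 7 also held 5, of 1697 genes (0.295%). At an unadjusted p of 0.001, 12 of the 937 genes of chromosome 17 passed, in both directions, against 97 of all 21895 genes (0.443%). Zfp943 (0.75), Ggnbp1 (0.41) and Rsph3a (0.98) were higher among them, and Btbd9 (-0.63) and Jpt2 (-0.45) lower. This chromosome was chosen after the values were seen.

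Medians of the wider lists lay between -0.37 and 0.37. Of 49 lists, 36 had a median below 0 and 13 above, 10 contained a gene past the threshold, and 34 kept the sign of their median without each of the 6 arrays. Over all genes 0.132% passed, and the lists were chosen with earlier results known. Counts of calls, or of 0 calls, are therefore no independent evidence about these groups. Of 24 sarcomere and Z-disc genes 19 were lower, 0 passed, and the median was -0.08 (-0.13 without array 1 labelled Lrat-/-). Actn2, the alpha-actinin of the Z-disc, read 12.9, 12.93 and 12.91 in wild type and 12.6, 12.62 and 12.58 on the arrays labelled Lrat-/- (-0.31 ± 0.06, adjusted p = 0.177, limma). Tcap, which anchors titin at the Z-disc, lay the other way at 0.47 ± 0.13 (adjusted p = 0.458, limma). Potassium channel genes were higher in 12 of 18 cases with a median of 0.09 (0.16 or 0.05 when wild-type array 1 or 3 was left out), and Kcnj11, the pore of the ATP-sensitive channel, read 8.73, 8.37 and 8.35 in wild type against 8.96, 8.92 and 9.04 (0.49 ± 0.10, adjusted p = 0.18, limma). Calcium handling genes split 7 higher and 9 lower with a median of -0.01, and Slc8a1, the sodium-calcium exchanger, differed by 0.26 ± 0.08 (adjusted p = 0.508, limma). Acta1, the skeletal actin of the fetal and stressed heart, differed by -0.82 ± 0.32 with overlapping groups (adjusted p = 0.694, limma).

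In 5 lists of energy and lipid metabolism 0 genes passed, where 0.132% of all genes did, and each list had a median below 0. Glucose uptake and glycolysis genes were lower in 15 of 20 cases (median -0.12), pyruvate dehydrogenase and citric acid cycle genes in 16 of 22 (-0.10) and respiratory chain and ATP synthase genes in 21 of 27 (-0.07). The respiratory chain list does not include Atp5e, the ATP synthase subunit given above as a near miss on the higher side. Sterol and fatty acid synthesis genes were lower in 18 of 21 cases (-0.13). Fatty acid uptake and oxidation genes split 11 higher and 14 lower (-0.05). Of genes bright in both groups 59.6% were lower, so the last of these shares lay near that background. Without 1 array the medians came to -0.06 in glycolysis (array 3 labelled Lrat-/-) and -0.03 in the respiratory chain (wild-type array 3). Omitting wild-type array 1 gave -0.05 in the citric acid cycle, -0.08 in sterol synthesis and 0.04 in fatty acid oxidation. Single genes of the first group were Pygm, muscle glycogen phosphorylase, at -0.39 ± 0.10, and Eno3, muscle enolase, at -0.28 ± 0.08 (adjusted p = 0.392 and 0.459, limma). Sdhb of succinate dehydrogenase differed by -0.28 ± 0.08 (adjusted p = 0.519, limma).

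**Figure D4:**
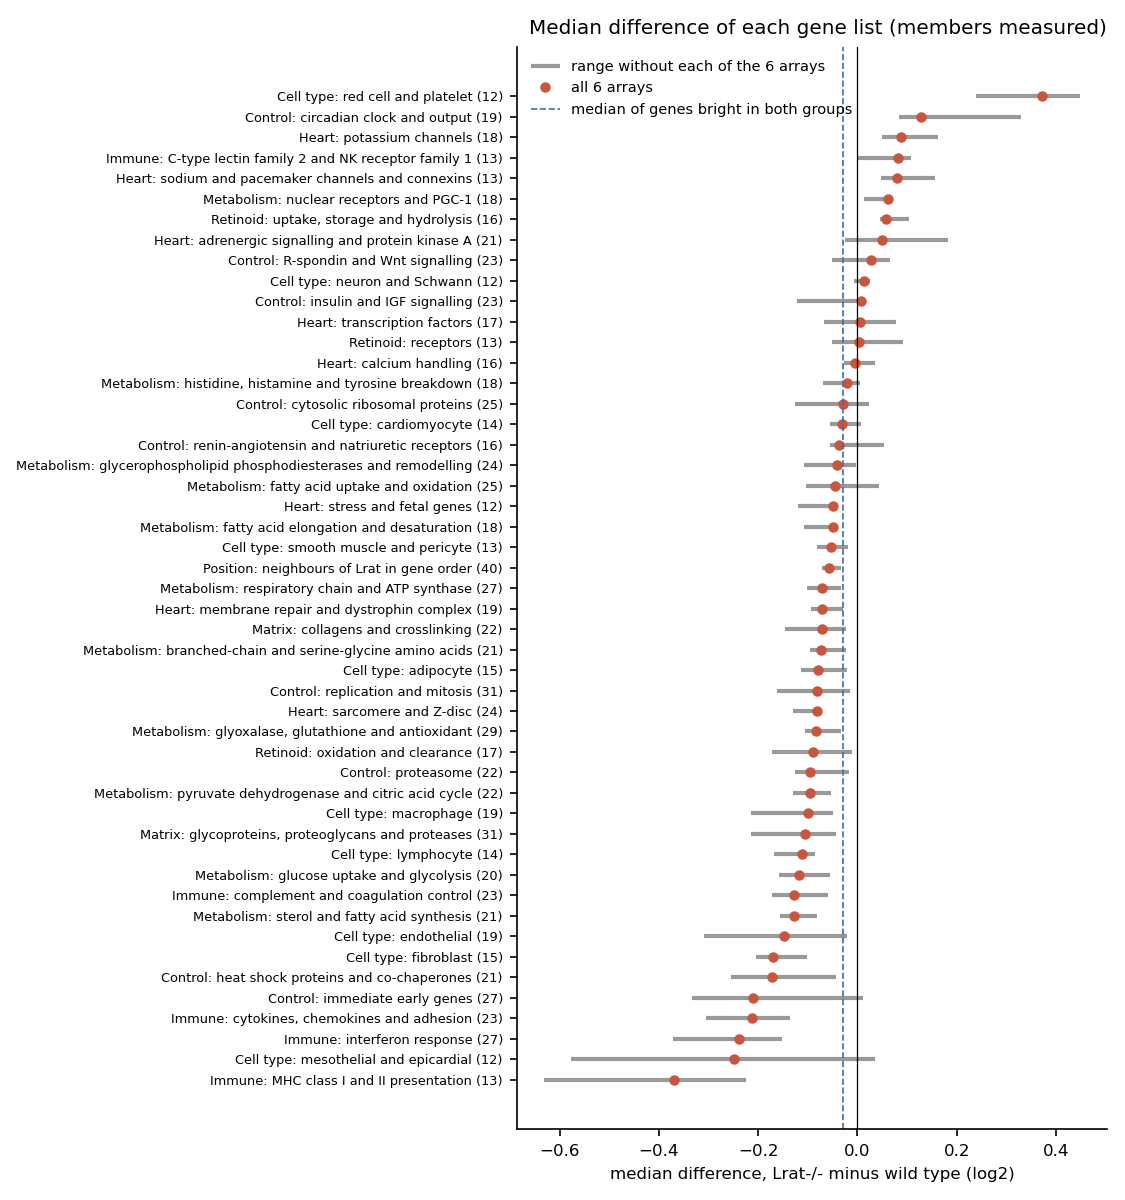
Median difference of each of 49 gene lists between the arrays labelled Lrat-/- and wild type (log2, horizontal axis), with the number of measured members in parentheses; points show all 6 arrays, grey bars the range when each of the 6 is left out, and the dashed line the median of genes bright in both groups (-0.03). Antigen presentation at -0.37 and red cell and platelet markers at 0.37 stand at the 2 ends.

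Among the immune lists, those of antigen presentation, interferon response and cytokines lay lowest. Of 13 genes of MHC class I and II presentation 11 were lower with a median of -0.37, of 27 interferon response genes 21 (-0.24) and of 23 cytokine, chemokine and adhesion genes 19 (-0.21), where 50.8% of all genes and 59.6% of genes bright in both groups were lower. These medians rested in part on single arrays. Leaving out array 1 or 3 labelled Lrat-/- put the antigen presentation median at -0.63 or -0.23, and leaving out wild-type array 3 or 1 put the interferon median at -0.37 or -0.15. The cytokine median was -0.31 without array 1 labelled Lrat-/- and -0.14 without wild-type array 1. Genes of complement and coagulation control had a median of -0.13 (-0.06 without array 3 labelled Lrat-/-), and C-type lectin and NK receptor genes one of 0.08 (0.01 without wild-type array 1). In the 3 immune lists with the lowest medians Ifi44l alone passed, where 0.132% of all genes did, and it rose. Psmb9, a subunit of the immunoproteasome, read 8.94, 8.88 and 8.53 in wild type and 8.36, 8.06 and 8.21 on the arrays labelled Lrat-/- (-0.57 ± 0.12, adjusted p = 0.238, limma). Gbp6, an interferon-induced GTPase, read 9.76, 9.71 and 8.51 in wild type and 8.3, 7.67 and 7.95 on the arrays labelled Lrat-/- (-1.35 ± 0.31, adjusted p = 0.293, limma). In both, wild-type array 3 lay nearest to the arrays labelled Lrat-/-. The mean level of the interferon list, set to 0 in wild type, was 0.30, 0.06 and -0.35 on the wild-type arrays and -0.13, -0.46 and -0.27 on those labelled Lrat-/-, so the groups overlapped. Lymphocyte markers, of which 0 of 14 were bright, had means of 0.04, 0.01 and -0.05 in wild type and -0.13, -0.26 and -0.25 on the arrays labelled Lrat-/-. Macrophage markers, 15 of 19 bright, overlapped at -0.13 to 0.13 and -0.28 to 0.17. The part of these cells in the immune values was not tested.

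Among markers of other cell types, the mean level of red cell and platelet markers separated the 2 groups on every array, as that of lymphocyte markers did above. Of 12 markers of red cells and platelets 10 were higher, with a median of 0.37 (0.24 without array 3 labelled Lrat-/-) and 0 past the threshold, and their mean level was 0.17, -0.14 and -0.03 on the wild-type arrays and 0.44, 0.36 and 0.46 on those labelled Lrat-/-. Ahsp, the chaperone of alpha globin, read 6.8, 5.71 and 6.51 in wild type and 8.05, 7.61 and 7.35 on the arrays labelled Lrat-/- (1.33 ± 0.43, adjusted p = 0.572, limma). Every array labelled Lrat-/- lay above every wild-type array in this gene. Fibroblast markers were lower in 14 of 15 cases (median -0.17, and -0.10 without array 2 labelled Lrat-/-), and their mean level lay at -0.11 to 0.07 in wild type and -0.23 to -0.10 on the arrays labelled Lrat-/-, with overlap. Endothelial markers were lower in 17 of 19 cases, and their median of -0.15 came to -0.02 when wild-type array 2 was left out and to -0.31 when wild-type array 3 was. Their mean levels overlapped too, at -0.27 to 0.18 in wild type and -0.25 to -0.08 on the arrays labelled Lrat-/-. Mesothelial and epicardial markers had a median of -0.25, which turned to 0.04 when wild-type array 2 was left out and was -0.58 when wild-type array 3 was. Immediate early genes, which respond within minutes to handling and stress, were lower in 23 of 27 cases (-0.21), a value that rested on wild-type array 1 and was 0.01 without it. Of 13 smooth muscle and pericyte markers 5 were higher and 8 lower, with a median of -0.05. The groups did not overlap for 2 on the higher side and 2 on the lower, against 7.9% of all genes. Among these 13 markers Acta2, smooth muscle actin, read 10.89, 11.85 and 10.89 in wild type and 12.43, 11.75 and 13.15 on the arrays labelled Lrat-/- with overlap (1.23 ± 0.35, adjusted p = 0.482, limma). The part of cell composition in the genes past the threshold was not tested.

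**Figure D5:**
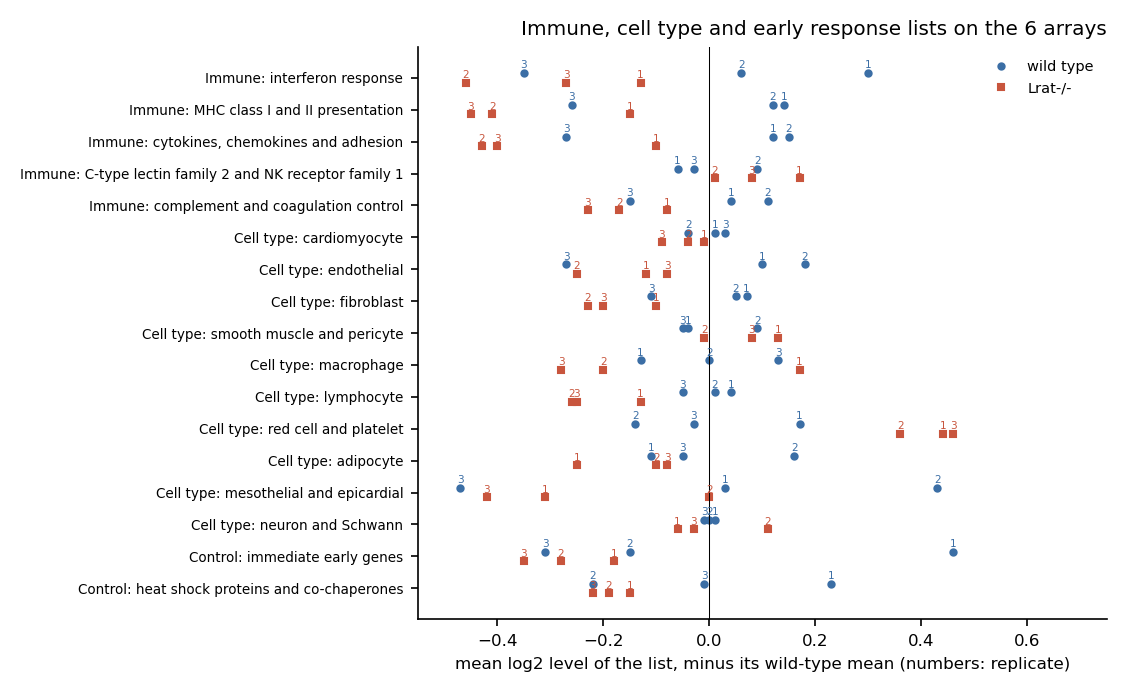
Mean log2 level of immune, cell type and early response lists on each of the 6 arrays, with the mean of the wild-type arrays set to 0 (horizontal axis); circles are wild type, squares the arrays labelled Lrat-/-, and small numbers the replicate. Red cell and platelet markers separate the groups (0.36 to 0.46 on the arrays labelled Lrat-/- against -0.14 to 0.17), as do lymphocyte markers (-0.26 to -0.13 against -0.05 to 0.04). In the interferon list wild-type array 3, at -0.35, lies among the arrays labelled Lrat-/-.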

How the data were processed

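RNA of left ventricles was measured on 9 Affymetrix MoGene arrays in 3 groups of 3. The log2 values were deposited by the authors per sample after RMA (background correction, quantile normalization and probe summary). RMA, R 3.1.2 and build mm8 are named without roles, per the submitters' processing notes, and the log2 scale was read from the values. The authors also deposited a ratio and a p-value per probe set and group pair, per the file headers. Their method is not stated, and the ratios served only as a check of direction, in which all 29 genes past the threshold ran the same way. The ratios describe the same 2 groups, so the shared direction is no independent evidence. A further deposited table has 9 value columns that match no label and were not used.

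Of 35556 probe sets 23825 were named, 19467 by accession, 3157 by symbol, 352 by synonym and 849 as written, which gave 21895 genes, each represented by its brightest probe set. Left out were 2903 with no gene in the comparison table, 2282 for which the tables differ, and 5222 negative and 1324 positive controls. The test was limma 3.58.1 under R 4.3.3 (1 mean per group over all 9 arrays, eBayes, two-sided, Benjamini-Hochberg over all genes, threshold 0.05), and the fit was tested on simulated data. Errors are standard errors. Named were Lrat, all bright genes past the threshold, dim ones by difference, the 10 bright genes per direction closest to it, and up to 4 members of each list by p-value, apart from a few genes that are counted but not reported here by name. Members, lists and rules were chosen with earlier results of these data known. Alternatives were the 6 arrays alone, a replicate block, other scalings, filters of 6 and 7, the mean of probe sets, a trended robust prior, array weights and each array left out. Python 3.11.15, pandas 2.3.3, numpy 2.4.6 and matplotlib 3.10.9 made tables and plots.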

Additional observations from a re-analysis of the deposited data

Results flagged for a closer look

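Signals of probe sets outside the named genes differed between the groups, in an added fit over 29010 probe sets of which 45 passed with limma (0.155%). Of these 45, 8 have no gene in the comparison table, and they hold 5 distinct signals. Probe set 10415081 and 3 others with identical values are annotated to the envelope gene of an endogenous retrovirus related to Friend spleen focus-forming virus. They read 4.64, 4.39 and 4.91 in wild type, near the negative control median of 4.56, and 10.5, 10.68 and 10.62 on the arrays labelled Lrat-/-, a difference of 5.955, whose size is uncertain because wild type lies at the negative control level. On the deficient diet the same signal was 9.95, 9.95 and 10.15. Probe set 10468877, with no description, differed by 5.398, from 4.96, 4.56 and 3.64 in wild type to 9.65, 9.84 and 9.86. Probe set 10367744, annotated to a retroviral gag protein, differed by 2.825. Probe sets 10389717 and 10429968, both without description, differed by 2.29 and 1.81. All 5 signals were higher on every array labelled Lrat-/-, and they were chosen because no gene name of the report covers them.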

How the results depend on the processing

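The count of 29 genes past the threshold (19 bright) was 7 with only the 6 arrays of the comparison (5 bright), and it ranged from 11 to 98 when each of the 9 arrays was left out (8 to 75 bright), with 98 and 75 both without wild-type array 3 and 11 and 8 without array 2 or 3 labelled Lrat-/-. Quantile normalization again gave 38, median centring 34, filters at mean log2 6 and 7 gave 34 and 26, the mean of probe sets 28, a trended robust prior 31, array weights 41 and, in the added fit chosen after seeing the data, all probe sets but controls 45. Same-numbered arrays of the 2 groups did not deviate together (correlations of -0.093, 0.009 and -0.146), though with 3 arrays in a group this cannot exclude a pairing by number. Same-numbered arrays labelled Lrat-/- of the 2 diets did correlate (0.224, 0.264 and 0.213), and the deficient arrays enter the estimate of the spread. The main fit treats all 9 arrays as independent, so its p-values take no account of this. With a replicate block 21 genes passed (14 bright), 17 of them among the 29. Over these alternatives the 29 genes kept their direction in 510 of 510 values and lost the call in 172, and other named genes gained one in 62 of 2062. List medians moved beyond the spread between arrays in 38 of 882. The cause of the losses was not tested, beyond fewer samples in the fits that leave arrays out. Genes under 7.58 have uncertain sizes.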
